A study of Mus musculus with 24 samples.

Results

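The genes described are 10 acyl-CoA thioesterases of mouse liver, Acot1, Acot2, Acot3, Acot4, Acot6, Acot7, Acot8, Acot9, Acot12 and Acot13, chosen by symbol from the 35304 genes of the deposited count table. They were chosen with the genotype difference of Acot3 in these samples in view, so that difference is given for them as a description, and nothing is read from its test. All 10 passed the filter on low counts that left 17275 genes for testing. The study compared livers without the clock gene Arntl (Bmal1) in hepatocytes, called HepKO (Alb::Cre_+/0, Bmal1_fl/fl), with livers called HepWT (Alb::Cre_0/0, Bmal1_fl/fl). Both groups carried the floxed gene, and the albumin promoter that drives Cre confines the deletion largely to hepatocytes. In which liver cells the gene was deleted was not measured here. All mice were C57BL/6, aged 8 to 12 weeks and fed at night only. The 24 libraries cover 6 times of day, given as zeitgeber time (ZT, in hours counted from lights on): 2, 6, 10, 14, 18 and 22. Each genotype has 2 libraries at each time.

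Acyl-CoA thioesterases cut acyl-CoA into a free fatty acid and coenzyme A, and so oppose the acyl-CoA synthetases that activate fatty acids. The type I enzymes Acot1 to Acot6 share 1 fold and differ in where they work, in cytosol, mitochondria or peroxisomes. The type II enzymes are unrelated to them in sequence. In liver, several type I genes are known to be induced by fasting and by ligands of the nuclear receptor PPAR alpha.

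The type I genes lie together on chromosome 12 (GRCm38, GENCODE M21), all on the plus strand, within 123489 bases. Acot2 is at chr12:83987861-83993873, Acot1 at chr12:84009490-84018371, Acot4 at chr12:84038379-84048601, Acot3 at chr12:84052144-84060402 and Acot6 at chr12:84100654-84111349. The end of Acot4 and the start of Acot3 are 3542 bases apart. The other members lie elsewhere, Acot7 at chr4:152178134-152271855, Acot8 at chr2:164792765-164804882, Acot9 at chrX:155262443-155297654, Acot12 at chr13:91741512-91786148 and Acot13 at chr13:24817948-24831540. RefSeq (GRCm38.p6) gave a promoter for 8 of the 10 members. The 250 bases before the start of 3 of them are shown, all on the plus strand: Acot3 and Acot4, neighbours whose levels in HepWT liver peaked at nearly the same hour, and Acot12, which was rhythmic in both genotypes. Capitals mark matches to the motifs searched.
Acot3 (chr12:84051894-84052143): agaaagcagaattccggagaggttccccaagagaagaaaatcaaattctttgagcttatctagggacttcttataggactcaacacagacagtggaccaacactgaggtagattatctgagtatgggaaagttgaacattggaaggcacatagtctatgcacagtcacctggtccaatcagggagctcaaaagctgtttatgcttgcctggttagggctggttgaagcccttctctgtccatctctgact
Acot4 (chr12:84038129-84038378): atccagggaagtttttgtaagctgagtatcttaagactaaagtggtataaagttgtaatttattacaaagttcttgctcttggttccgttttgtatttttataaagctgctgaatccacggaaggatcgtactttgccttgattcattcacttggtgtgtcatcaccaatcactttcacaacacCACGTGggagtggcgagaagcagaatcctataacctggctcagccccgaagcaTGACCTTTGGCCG
Acot12 (chr13:91741271-91741520): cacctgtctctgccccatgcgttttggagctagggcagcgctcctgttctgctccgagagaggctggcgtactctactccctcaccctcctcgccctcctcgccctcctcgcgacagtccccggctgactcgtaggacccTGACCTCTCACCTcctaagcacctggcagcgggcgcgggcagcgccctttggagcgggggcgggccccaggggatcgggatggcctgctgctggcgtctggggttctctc
Searched on both strands were the E-box CACGTG that the CLOCK and ARNTL proteins bind, the D-box (TTATGTAA or TTACGTAA), the core AGGTCA of sites of ROR and REV-ERB receptors, and the PPAR element AGGTCANAGGTCA with at most 2 mismatches. The core is contained in the element, so 1 stretch can match both. The Acot4 window held the E-box, 66 to 61 bases before the start, as 6.02% of the 32807 RefSeq promoter windows of this length did. It also held an element on the minus strand, 13 to 1 bases before the start, with 2 mismatches. The Acot12 window held an element with 1 mismatch, 110 to 98 bases before the start. Of all windows, 3.23% held an element with at most 2 mismatches. Both elements contained the exact core, which was in 14% of windows. The window of Acot3 held no match, and neither did those of Acot1, Acot2, Acot7, Acot8 and Acot9. The Acot7 window (chr4:152185358-152185607) lies inside the gene as placed above. No member with a window held the D-box (0.93% of windows), and Acot6 and Acot13 had no window to search. The matches are of letters and are not binding measured in these livers.

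In HepKO, replicate 2 was shallow at every time but ZT2, with 12997689 to 16910415 counts in these 5 libraries, against 23583035 to 30677807 counts elsewhere (19 libraries). Levels are CPM, read counts scaled to library size with TMM factors. The labels do not say whether libraries came from separate animals, so a p-value here covers no more than the spread among these samples. The count of Arntl, which does not single out the deleted part, ran from 1.27 to 46.0 CPM in HepWT and from 10.3 to 17.7 CPM in HepKO. The hepatocyte marker Alb was lower in HepKO (25010 against 63920 CPM), whereas the other 6 of 7 hepatocyte markers did not pass the test. Of the markers of Kupffer cells, 9 of 9 fell, with a summed level of 280.1 to 509 CPM in HepWT and 218 to 458 CPM in HepKO. Of those of endothelium, 5 of 6 fell (331 to 382 against 284 to 345 CPM), and 2 of 5 cholangiocyte markers rose (25.9 to 57.9 against 46.8 to 158 CPM). Of 6 markers of stellate cells and fibroblasts, Col1a1 and Col3a1 fell by 1.18 and 1.14 (log2) and Reln rose by 0.22. The 6 together summed to 362 to 531 CPM (HepWT) and 359 to 467 CPM (HepKO). The size of both falls rested on which HepWT libraries were used. For Col1a1, replicate 1 of HepWT averaged 8.945 CPM and replicate 2 averaged 20.95 CPM, beside a HepKO mean of 6.78 CPM. For Col3a1 these means were 62.0, 140.9 and 46.7 CPM in the same order. The part of all these cell-type markers in the results was not tested. In bulk liver, fewer cells of a type and less RNA per cell cannot be told apart.

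Acot3, a peroxisomal enzyme for long-chain acyl-CoA, was highest in HepWT liver at ZT10 to ZT18 and was close to the limit of detection in HepKO throughout. The 2 HepWT libraries had 0.631 and 1.49 CPM at ZT2 and 1.29 and 0.420 CPM at ZT6. They had 7.79 and 8.95 CPM at ZT10, 19.2 and 8.52 CPM at ZT14, 15.02 and 6.36 CPM at ZT18, and 2.78 and 1.61 CPM at ZT22. The 6 libraries of ZT10 to ZT18 thus all lay above the 6 libraries of the other times. In HepKO the values were 0.0779 and 0.131 CPM at ZT2, 0.0734 and 0 at ZT6, 0.758 and 0.0648 at ZT10, 0 and 0.574 at ZT14, 0.606 and 0.725 at ZT18, and 0.485 and 0.145 at ZT22. The HepKO libraries held 0 to 20 counts each, 81 counts in all 12 against 1969 in HepWT, and replicates of a time differed by up to 20 against 1 count (ZT10). Both HepKO libraries lay below both HepWT libraries at each of the 6 times. The genotypes nevertheless overlapped when times were pooled, since the lowest HepWT library (0.420 CPM, ZT6) lay below 5 HepKO libraries. Averaged over the day, Acot3 was 15.7-fold lower in HepKO (log2 difference -3.97 ± 0.39 SE). The ratio of the mean levels of HepWT and HepKO was 6.97 at ZT22 and 48.3 at ZT14, where the HepKO libraries held 0 and 10 counts. Single libraries with few counts moved this difference. It was -4.90 without HepKO ZT14 replicate 2, whose partner held no count, -4.53 without HepKO ZT6 replicate 1, and -4.66 without the 5 libraries of low depth.

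Acot4, a peroxisomal enzyme that acts on succinyl-CoA and other dicarboxylic acyl-CoA, was also highest in HepWT at ZT10 to ZT18, at a higher level than Acot3. HepWT values were 19.2 and 14.7 CPM at ZT2, 17.3 and 10.95 at ZT6, 37.0 and 28.9 at ZT10, 56.2 and 28.35 at ZT14, 40.8 and 27.4 at ZT18, and 19.2 and 24.1 at ZT22. HepKO values were 8.30 and 8.35 CPM at ZT2, 7.92 and 7.65 at ZT6, 12.9 and 11.5 at ZT10, 5.03 and 10.55 at ZT14, 15.35 and 11.7 at ZT18, and 13.15 and 9.94 at ZT22. The HepKO libraries were lower at each time without overlap, and pooled over times 7 of 12 lay below the lowest HepWT library. The log2 difference was -1.33 ± 0.14, which is 2.52-fold lower in HepKO, and the ratio of means was 5.43 at ZT14 and at most 2.70 at any other time.

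Acot1, the cytosolic enzyme for long-chain acyl-CoA, was also lower at every time. In HepWT it had 16.7 and 22.4 CPM at ZT2, 18.35 and 7.705 at ZT6, 23.7 and 14.5 at ZT10, 33.0 and 22 at ZT14, 33.3 and 23.8 at ZT18, and 30.8 and 18.2 at ZT22. In HepKO it had 7.56 and 8.77 CPM at ZT2, 5.35 and 3.90 at ZT6, 11.25 and 8.75 at ZT10, 4.46 and 4.76 at ZT14, 16.4 and 12.5 at ZT18, and 13.4 and 6.31 at ZT22. No HepKO library reached a HepWT library of its own time, and the log2 difference was -1.41 ± 0.16 (2.66-fold lower). At ZT14, where both HepKO libraries were low and both HepWT libraries were high, the ratio of means was 5.96.

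Acot2, the mitochondrial relative of Acot1, ranged from 2.93 to 7.20 CPM in HepWT (median 4.37) and from 1.24 to 4.17 CPM in HepKO (median 2.55). The HepKO libraries overlapped those of HepWT at 3 of the 6 times, and 8 of 12 lay below the lowest HepWT library. Its log2 difference was -0.78 ± 0.17. In HepKO the highest libraries were those of ZT10 (4.17 and 3.50 CPM) and ZT18 replicate 1 (4.16 CPM), and ZT14 was low (1.24 and 2.06 CPM), as for Acot1. Acot6, a peroxisomal enzyme for branched-chain acyl-CoA, was the exception in the cluster. It ranged from 0.901 to 3.04 CPM in HepWT and from 0.803 to 2.90 CPM in HepKO, and its log2 difference was 0.04 ± 0.18.

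**Figure D1:**
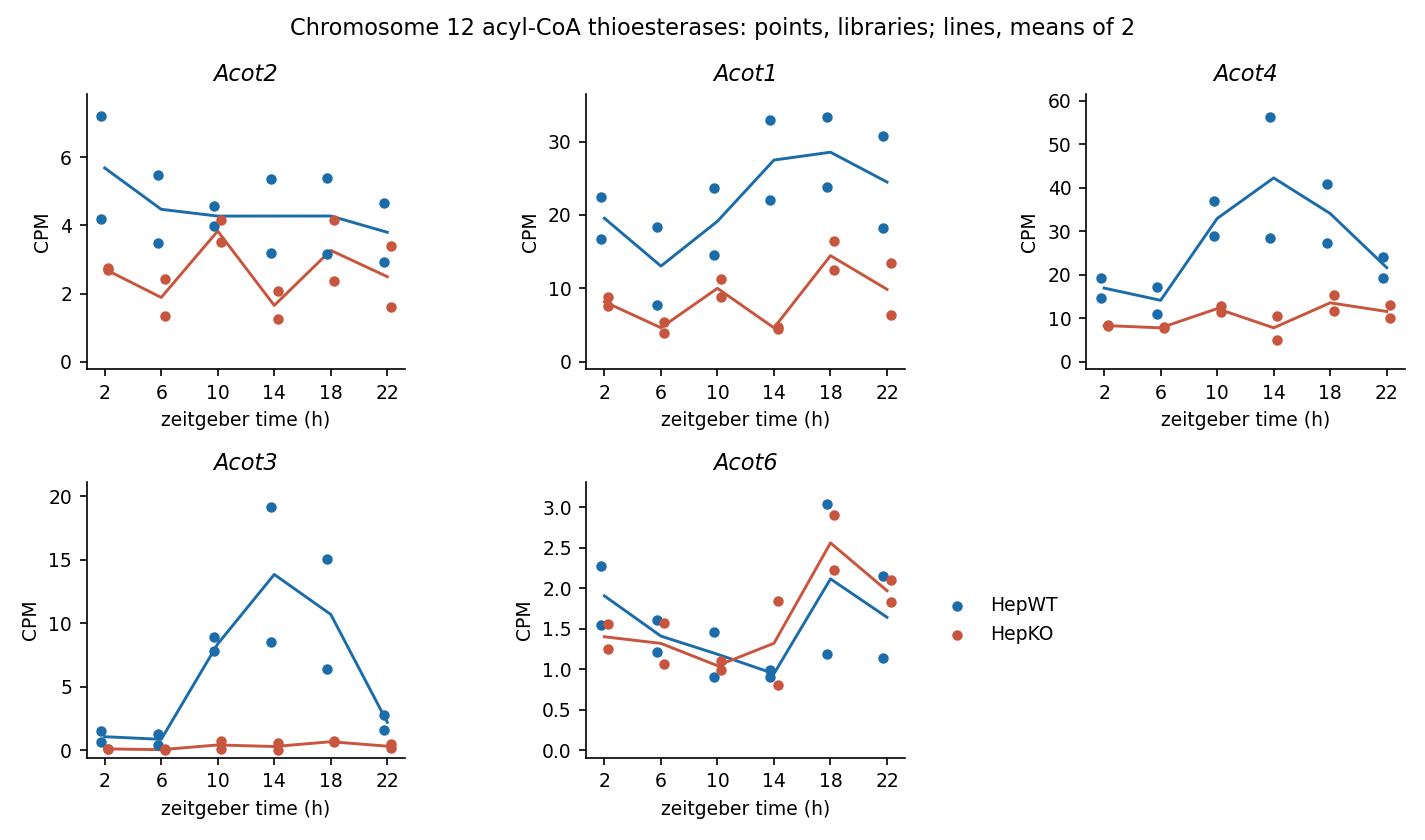
Levels of the 5 chromosome 12 members (CPM, vertical axes starting at or just below 0) against zeitgeber time (hours); points are single libraries and lines join the means of the 2 libraries of each genotype and time. Acot3, Acot4 and Acot1 are lower in both HepKO libraries at every time, whereas Acot6 overlaps throughout.

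Reads of these relatives may be partly shared. The coding sequences of Acot1 and Acot2 were 95.6% identical, and 17.1% of the 100-base windows of Acot2 transcripts also occurred in Acot1. Acot3 was 84.0% identical to Acot1 and 74.2% to Acot4. Of its windows 15.9% occurred in another gene, mostly in the overlapping model Gm49366, which is not a gene of the table. A further gene, 4732463B04Rik, lies antisense to Acot3 and Acot4, and 8.23% of the Acot4 windows occurred in its transcripts. It had 18 counts in HepKO and 83 in HepWT, and no source used here says whether counting used strand. The values of Acot1, Acot2, Acot3 and Acot4 are therefore uncertain to that extent.

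The 5 members outside the cluster had log2 differences between -0.28 and 0.12. Acot13, a thioesterase associated with mitochondria, ranged from 21.4 to 31.9 CPM in HepWT (median 27.55) and from 19.9 to 24.4 CPM in HepKO (median 22.2). Its log2 difference was -0.28 ± 0.06. Acot8, a peroxisomal enzyme with a broad range of substrates, ranged from 9.16 to 12.9 CPM in HepWT and from 7.72 to 11.9 CPM in HepKO (log2 difference -0.18 ± 0.06). Acot7, a cytosolic enzyme best known from brain, ranged from 8.16 to 17.8 CPM in HepWT and from 10.6 to 15.4 CPM in HepKO (-0.16 ± 0.07). All HepKO libraries of Acot7 lay inside the HepWT range. Acot9, a mitochondrial enzyme, ranged from 2.41 to 5.18 CPM in HepWT and from 3.43 to 5.24 CPM in HepKO, and its log2 difference was 0.12 ± 0.09. Acot8 overlaps Snx21 on the other strand, and 7.14% of its windows occurred there.

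Acot12, the cytosolic enzyme that cuts acetyl-CoA, had the highest count among the members and was rhythmic in both genotypes. In HepWT it had 97.2 and 104 CPM at ZT2, 136 and 127 at ZT6, 169 and 168 at ZT10, 168 and 169.6 at ZT14, 109 and 82.1 at ZT18, and 96.1 and 84.8 at ZT22. In HepKO it had 90.5 and 89.3 CPM at ZT2, 111 and 118 at ZT6, 174 and 159 at ZT10, 112 and 141 at ZT14, 99.85 and 85.8 at ZT18, and 83.1 and 70.4 at ZT22. The genotypes overlapped at ZT10 and ZT18 and were apart at the other 4 times. The log2 difference was -0.18 ± 0.05.

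**Figure D2:**
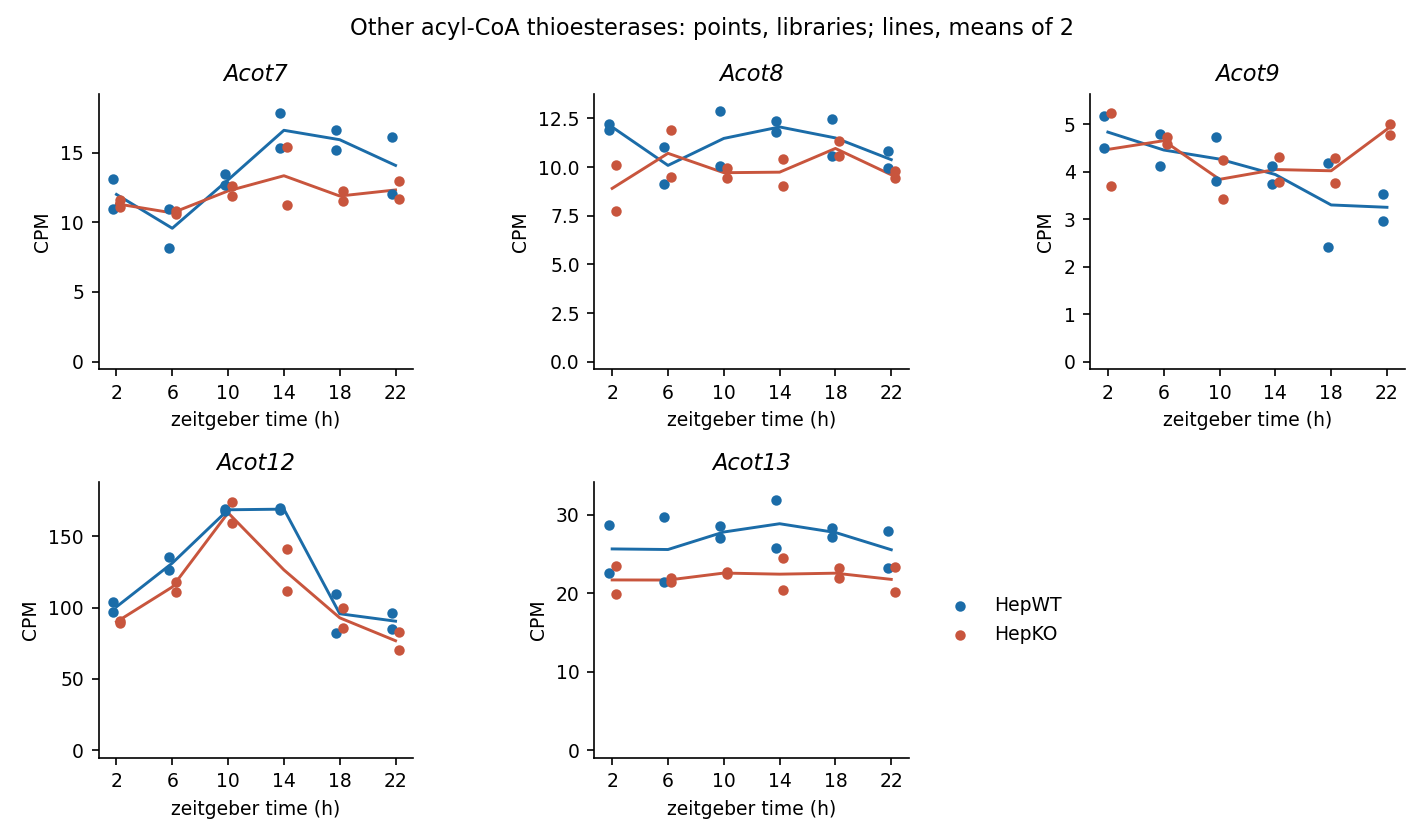
Levels of the other 5 members (CPM, vertical axes from 0) against zeitgeber time (hours), with points for single libraries and lines through the means of 2. Acot12 has its highest values at ZT10 and ZT14 in HepWT and at ZT10 in HepKO, and Acot7 rises from ZT6 to ZT14 in HepWT.

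For reference, the threshold used for all genes (edgeR quasi-likelihood, Benjamini-Hochberg adjusted p below 0.05 for the genotype difference) was passed by 26.5% of genes, 13.3% lower and 13.2% higher, and by 7 of the 10 members, all lower in HepKO. The median log2 difference of the members was -0.23, against -0.01 over all genes tested, and 8 of 10 members were below 0 against 52.0% of all genes. No member had all 12 HepKO libraries below all 12 HepWT libraries, which 0.48% of genes had. For 3 members, Acot1, Acot3 and Acot4, both HepKO libraries were below both HepWT libraries at all 6 times, as for 2.05% of all genes. Since the members were chosen with these differences known, the counts say nothing further about them.

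The HepWT replicates did not lie at the same level. Replicate 1 libraries had the higher mean for Acot1 (26.0 against 18.1 CPM), Acot3 (7.78 against 4.56 CPM), Acot4 (31.6 against 22.4 CPM) and Acot7 (14.7 against 12.4 CPM, higher at 6 of 6 times), and the lower mean for Acot6 (1.16 against 1.90 CPM). Set against HepWT replicate 1 alone, the log2 difference of HepKO was -4.14 for Acot3, -1.52 for Acot4, -1.64 for Acot1 and -0.89 for Acot2. Against replicate 2 alone it was -3.58, -1.08, -1.08 and -0.59 in the same order. The direction of these 4 genes was thus the same against either set of HepWT libraries. The difference of Acot7 was -0.28 against replicate 1 and -0.02 against replicate 2, and that of Acot6 was 0.41 and -0.22, so the values of these genes rest on which HepWT libraries are used.

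**Figure D3:**
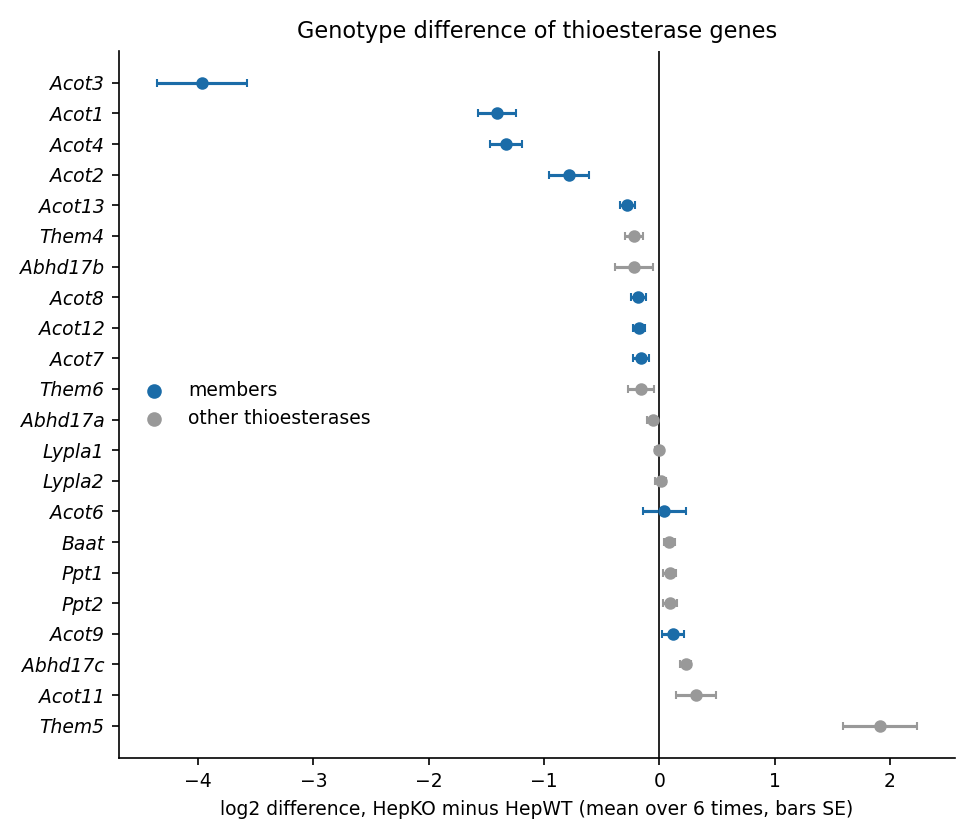
Log2 difference of HepKO minus HepWT averaged over the 6 times (horizontal axis, bars are SE) for the 10 members in blue and 12 other tested thioesterase genes in grey. Acot3, Acot1, Acot4 and Acot2 lie between -3.97 and -0.78, and Them5, on few counts, is the gene farthest to the right at 1.91.

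Levels of different genes are compared per kilobase of exon, here in HepWT. Acot12 (38.2 ± 10.7 CPM per kilobase, SD over n = 12 libraries) and Acot13 (36.1 ± 4.20) were highest and within their spread of each other. Acot7 (6.37 ± 1.32), Acot8 (5.64 ± 0.59), Acot1 (5.62 ± 1.96) and Acot4 (4.05 ± 1.91) followed, each within the spread of the next. Acot2 (2.03 ± 0.57), Acot3 (1.79 ± 1.76) and Acot9 (1.76 ± 0.34) were lower still, and Acot6 was lowest (0.239 ± 0.102). In HepKO the same quantity was 0.0882 ± 0.0869 for Acot3, 2.20 ± 1.02 for Acot1, 1.53 ± 0.434 for Acot4 and 1.20 ± 0.458 for Acot2. Acot3 thus stood beside Acot2 in HepWT and below Acot6 (0.2499 ± 0.0955) in HepKO. The SD includes the change over the day.

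Daily rhythm was tested with a wave of 24 h in each genotype, and the amplitude is how far the fitted peak stands above the fitted mean, on the log2 scale. In HepWT 4 of the 10 members passed, Acot3, Acot4, Acot7 and Acot12, and 30.3% of all genes tested did. The median amplitude of the members was 0.39, against 0.23 over all genes. In HepKO 1 member passed, Acot12, against 14.3% of all genes, and the median amplitude was 0.19 for both.

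Acot3 had the largest amplitude among the members in HepWT, 2.19 ± 0.28 SE, a 20.7-fold change from trough to peak, with its peak at ZT14.7 (adjusted p = 2.78e-05, edgeR). Acot4 peaked at ZT14.9 with an amplitude of 0.77 ± 0.15, or 2.90-fold from trough to peak (adjusted p = 0.0014, edgeR). With HepWT replicate 2 libraries alone the rhythm of Acot4 no longer passed (amplitude 0.64, adjusted p = 0.112, edgeR), whereas that of Acot3 did (1.77, adjusted p = 0.0282). Acot7 peaked later, at ZT16.9, with an amplitude of 0.35 ± 0.07 (adjusted p = 0.00133, edgeR). Its HepWT libraries of ZT14 and ZT18 (15.2 to 17.8 CPM) lay above those of ZT2, ZT6 and ZT10 (8.16 to 13.5 CPM). The libraries of ZT22 (16.1 and 12.05 CPM) fell on both sides. Acot12 peaked earlier, at ZT10.7, with an amplitude of 0.51 ± 0.06 (adjusted p = 7.12e-06, edgeR).

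The other 6 members did not pass in HepWT. Acot1 had an amplitude of 0.51 ± 0.19 (adjusted p = 0.122 in edgeR and 0.0452 in limma-voom), so its rhythm rested on the tool. Acot6 had an amplitude of 0.43 ± 0.18 and Acot9 of 0.26 ± 0.09, with adjusted p of 0.175 and 0.0851 (edgeR). Without HepWT ZT18 replicate 2, Acot9 passed (amplitude 0.35, adjusted p = 0.0248, edgeR). Acot2, Acot8 and Acot13 had amplitudes of 0.15 ± 0.19, 0.05 ± 0.07 and 0.10 ± 0.06.

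In HepKO Acot12 had the amplitude it had in HepWT, 0.51 ± 0.06, and its peak at ZT10.4 (adjusted p = 0.000133, edgeR). The difference between genotypes in its amplitude was 0.00 ± 0.09, from HepKO minus HepWT. The amplitude of Acot3 in HepKO was 1.09 ± 0.55 (adjusted p = 0.339, edgeR), on counts of 0 to 20. That of Acot4 was 0.24 ± 0.16 and that of Acot7 was 0.11 ± 0.07, with adjusted p of 0.535 and 0.506. Acot6 had 0.56 ± 0.19 with a peak at ZT19.9 (adjusted p = 0.102, edgeR). It passed with HepWT replicate 1 libraries alone (adjusted p = 0.0336) and without HepWT ZT18 replicate 2 (adjusted p = 0.039), fits that share the spread over both genotypes.

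No member passed the test of a difference in rhythm between genotypes in edgeR, DESeq2 or limma-voom, and 1.5% of all genes did in edgeR. At an unadjusted p below 0.05 there was 1 member, Acot4, against 12.5% of all genes. Read as an interaction of genotype with 6 separate times, no member passed either, and 1.12% of all genes did. The difference in amplitude, HepKO minus HepWT, was -1.10 ± 0.62 for Acot3 (adjusted p = 0.567, edgeR), -0.52 ± 0.22 for Acot4 (adjusted p = 0.347) and -0.24 ± 0.10 for Acot7 (adjusted p = 0.413). Without HepKO ZT10 replicate 1, which held 20 of the 81 counts, the difference of Acot3 was -0.29. A rhythm that passed in HepWT and not in HepKO is therefore not shown to differ for Acot3, Acot4 or Acot7.

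**Figure D4:**
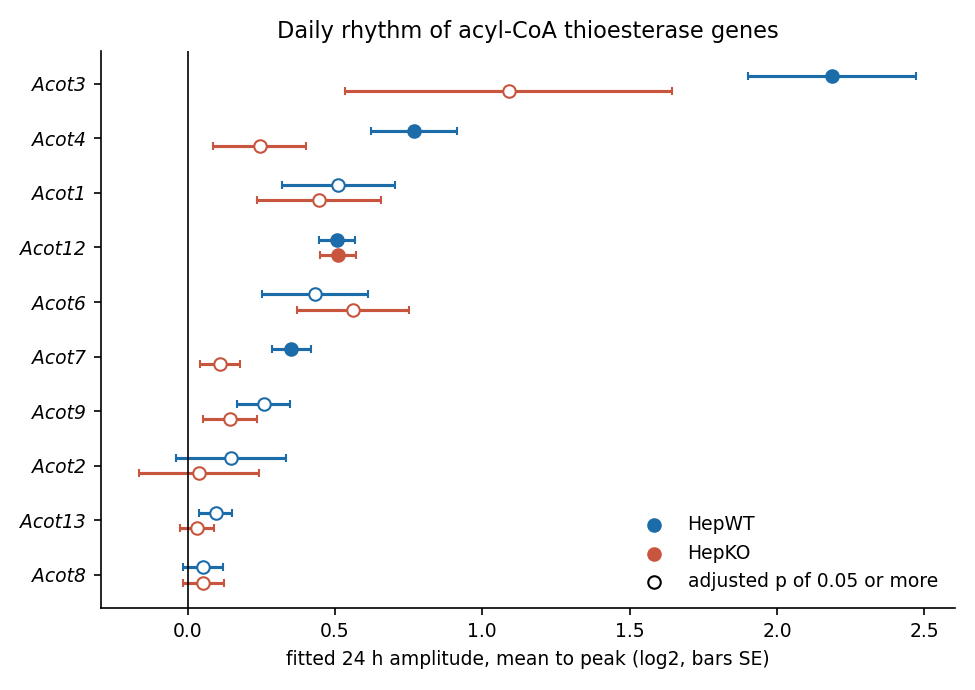
Fitted 24 h amplitude from mean to peak (log2, horizontal axis, bars are SE) of each member in HepWT (blue) and HepKO (red); filled points have an adjusted p below 0.05. Acot12 is filled in both genotypes at 0.51, and Acot3 has the largest amplitude and the widest bars.

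The levels of Acot3 and Acot4 moved together over the libraries, with a Pearson correlation of log2 CPM of 0.91 over the 12 HepWT libraries and 0.82 over the 12 HepKO libraries. In HepWT the correlation of Acot3 was 0.80 with Acot7, 0.69 with Acot1, 0.09 with Acot2 and -0.39 with Acot6. In HepKO, where Acot3 had few counts, it was 0.66, 0.71, 0.62 and 0.07 in the same order. These points share times of day and libraries and are given as a description. Over all 24 libraries the genes most like Acot3 were Tnks1bp1 and Lrp4 (both 0.94), Susd1 and Tor1a (both 0.93) and Gys2 (0.92), the liver glycogen synthase. The genotype difference of Acot3 enters this correlation, and each of these genes was lower in HepKO (log2 differences from -0.44 to -1.325). Over the 12 HepWT libraries the genes most like Acot3 were Lrp4 and Rapgef1 (both 0.95), Cyp2a5 (0.95), and Atp6v1d and Ipo5 (both 0.94). Lrp4 was the gene in both lists. Its level was 48.1 CPM in HepWT and 18.3 CPM in HepKO, with a HepWT peak at ZT14.5. Of the others in the HepWT list, Cyp2a5 was also lower in HepKO (log2 difference -1.71). Rapgef1 (-0.14), Atp6v1d (-0.08) and Ipo5 (0.01) differed little by genotype.

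Further thioesterases of the table, which are no members, were measured as well. Acot5, in the chromosome 12 cluster between Acot3 and Acot6, had no count in any of the 24 libraries, which allows up to 0.00508 CPM over all of them (3 counts, counting error only). Acot10 had 21 counts in each genotype and Olah 2 in each, and neither was tested. Of the 12 that were tested, 2 rose and 1 fell in HepKO. Them5, a mitochondrial thioesterase for cardiolipin remodelling, rose from 0.109 to 0.389 CPM (log2 difference 1.91 ± 0.32, adjusted p = 0.000223, edgeR). This rests on few counts, 36 in all 12 HepWT libraries and 105 in all 12 HepKO libraries. Abhd17c, a depalmitoylase, rose by 0.23 ± 0.05 (adjusted p = 0.00204, edgeR). Them4 fell by 0.22 ± 0.08 (adjusted p = 0.044, edgeR), a call that was lost with a replicate block (adjusted p = 0.0504), with HepWT replicate 2 alone (0.427), without the 5 shallow libraries (0.051) and in 18 of the 24 fits that left out 1 library. Acot11, Baat, Them6, Ppt1, Ppt2, Lypla1, Lypla2, Abhd17a and Abhd17b did not pass, with log2 differences between -0.22 and 0.32. The median of the 12 was 0.05.

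Other steps of acyl-CoA metabolism were read from lists of known genes, described by counts and medians, beside 13.3% of all genes that fell, 13.2% that rose and a median over all genes of -0.01. Of 20 genes of peroxisomal fatty acid oxidation, 11 fell and 5 rose, with a median log2 difference of -0.25. Abcd2, which carries very long acyl-CoA into peroxisomes, fell by 2.53, and the thiolases Acaa1b and Acaa1a by 0.89 and 0.77. Of 18 genes of mitochondrial oxidation, 12 fell and 3 rose (median -0.17), among them Cpt1a, which commits acyl groups to entry, by 0.68, the carrier Slc25a20 by 0.53, Eci2 by 0.46 and Acadl by 0.36. Of 8 genes of omega oxidation, which makes dicarboxylic acids, 3 fell and 2 rose (median -0.43). Aldh3a2 and Cyp4a10 each fell by 1.34 and Cyp4a32 by 0.39, and Cyp4a12b rose by 0.67.

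Lists of genes that supply or bind the substrates of the thioesterases were described in the same way. Of 16 acyl-CoA synthetases, which catalyse the opposite step, 5 fell and 2 rose (median -0.01). Slc27a2 fell by 0.45 and Acsm5 by 0.38, while Acsm2 rose by 0.76 and Acss2 by 0.73. Of 10 genes of coenzyme A synthesis and breakdown, 2 fell, Vnn1 by 0.86 and Pank1 by 0.21, and none rose (median -0.08). Of 9 genes that bind fatty acids or acyl-CoA, 3 fell, Fabp1 by 0.76, Fabp2 by 0.34 and Acbd5 by 0.16, and none rose (median -0.07). Of 7 genes of PPAR alpha and its partners, Ppara fell by 0.79 (151.7 to 85.4 CPM) and Rxra by 0.17, while Ppard rose by 1.37 (median -0.11).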

How the data were processed

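The deposited file holds gene counts, which the authors made from total RNA libraries, stranded and depleted of ribosomal RNA per the labels' protocols. Reads were aligned with STAR 2.4.0i to mm10, per the submitters' processing notes. Counting tool, annotation and strand setting: not given in the sources used here. All columns were used, including 5 whose suffix the labels do not explain. The members and gene lists were chosen with earlier results of these data known.

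Counts were fitted in edgeR 4.0.16 (R 4.3.3) with TMM, filterByExpr (minimum count 10, minimum total 15) and the quasi-likelihood test, two-sided, over all 17275 genes, at a Benjamini-Hochberg adjusted p of 0.05. A model with 12 groups of genotype and time (12 residual degrees of freedom) was used for the genotype difference. A 24 h cosine and sine in each genotype (18 residual degrees of freedom) gave rhythms. Both were tested on simulated data. Likeness to Acot3 is Pearson's r of log2 CPM with a prior count of 2. Named are all members, all other thioesterases of the table, the 5 genes most like Acot3, and of each other list up to 4 genes with the largest difference among those that passed at a mean log2 CPM of 1 or more. One gene that this rule takes is not reported here. Without molecular identifiers, PCR copies cannot be told from separate molecules. The chi-square between the 2 replicates of a group, per degree of freedom, was 8.76 to 56.9. Alternatives used limma-voom (limma 3.58.1), DESeq2 1.42.0, its size factors, no filter, a 12 h harmonic, a 6-level interaction, a replicate block and subsets of libraries. Where 1 library of a group was left out, its partner was taken to vary as other groups do.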

Additional observations from a re-analysis of the deposited data

How the results depend on the processing

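The genotype difference was called for 4572 genes and for 2886 without the 5 HepKO libraries of low depth. Leaving out single libraries gave 4094 to 4569 genes and 5 to 8 members instead of 7. Acot8 missed the threshold in DESeq2, without the filter and against HepWT replicate 1 alone, where Acot7 passed. Acot8 and Acot12 missed it against HepWT replicate 2 alone and without the 5 libraries of low depth. The members were chosen with this difference known, so their calls are a description and nothing is read from them.

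A rhythm difference was called for 259 genes, for 1367 without the filter on low counts, 574 in DESeq2, 66 without the libraries of low depth, and 165 and 149 with HepWT replicate 1 or 2 alone. Leaving out single libraries gave 171 (without HepKO ZT2 replicate 1) to 301. Without the filter 2 members passed (Acot3, adjusted p = 0.000312; Acot4, 4.76e-07), and 5 members had a rhythm in HepKO instead of 1. That fit estimated an infinite number of prior degrees of freedom, against 4.68 with the filter, so it gave genes no spread of their own. HepWT rhythms numbered 5239, and 2269 and 2640 with replicate 1 or 2 alone (4376 to 5311 without single libraries; members 4 to 5). HepKO rhythms numbered 2471, and 173 without the libraries of low depth (1656 to 2584 without single libraries; members 1 to 2). With HepWT replicate 1 alone, or without HepWT ZT18 replicate 2, 2 members were called in HepKO.

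Replicate numbers were not taken to pair the samples. The deviations from the group means correlated over 0.1 in 12 of 66 pairings of groups. They correlated by -0.01 to 0.30 among HepWT groups and by -0.14 to 0.08 among HepKO groups, so the 12 include no pairing among HepKO groups. A replicate block, 1 term shared by both genotypes, gave 4597 genotype differences, 259 rhythm differences, and 5256 and 2406 rhythms in HepWT and HepKO. The members among them numbered 7, 0, 4 and 1. A term for HepWT alone was not fitted, so these counts do not speak to a replicate difference there. Acot3 in HepKO rests on few counts, with at most 2 in 6 of 12 libraries.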

Other observations

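Genes known to differ between male and female liver were described as lists too. Among all genes tested, 13.3% fell and 13.2% rose in HepKO. Of 10 tested female-biased genes, 6 fell and 2 rose in HepKO (median log2 difference -2.06), and of 10 male-biased genes, 6 rose and 3 fell (median 0.48). None of 4 tested sex-chromosome genes passed. Ddx3y, on the Y chromosome, had 96.2 to 148 CPM in all 24 libraries, and Xist, of the inactive X chromosome, had at most 0.165 CPM. The part of these lists in the values of the thioesterases was not tested.

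Markers of skeletal muscle and kidney were low. Those of skeletal muscle summed to at most 0.118 CPM in HepWT and 0.196 CPM in HepKO, and those of kidney to at most 1.53 and 1.39 CPM. Of the adipocyte list, Adipoq had a mean of 0.016 CPM in HepWT and 0.26 CPM in HepKO. Plin1 had 0.0096 and 0.13 CPM, whereas Cidec had 1.43 and 0.64 CPM. Of the exocrine pancreas list, Cela1 was the gene that could be tested. It rose from 11.8 to 37.0 CPM (log2 difference 1.66 ± 0.09, adjusted p = 6.61e-10, edgeR). Prss2, Cpb1 and Amy2a5 did not pass the filter on low counts. The mean of Cpb1 was 0.003 CPM in HepWT and 0.42 CPM in HepKO (SD 1.4), and that of Prss2 was 0.006 and 0.29 CPM (SD 0.99). With SDs above the means, these HepKO counts were uneven over the libraries, and their source was not tested.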
